A study of Mus musculus with 54 samples.

Results

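TFE3 is a basic helix-loop-helix transcription factor whose binding to mouse liver chromatin was mapped here by ChIP-seq in 6 pooled peak lists. The regions described are the 2332 peaks, of 11385 in the list of chow-fed Control liver, that overlapped by at least 1 bp a peak in each of the other 5 lists, so that a peak was called there with and without Flcn, on both diets, and with and without added SREBP-1c. They made up 20.5% of the chow Control peaks, and the 6 lists together held 121380 peaks in 50397 distinct regions. The sites were chosen by their presence in the called lists, so presence and the peak scores are given as a description, without a test.

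TFE3, with its relatives TFEB and MITF, binds E-boxes of the sequence CACGTG, often within the longer CLEAR element found upstream of lysosomal genes, and it turns on genes of lysosome formation and autophagy. Folliculin, the product of Flcn, acts with FNIP1 or FNIP2 on the Rag GTPases RagC and RagD at the lysosome, which lets mTORC1 phosphorylate TFE3 and hold it in the cytosol. Loss of folliculin lets TFE3 enter the nucleus.

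All mice carried floxed Flcn alleles and received AAV8 virus with the TBG promoter, which is active in hepatocytes: Cre gave liver Flcn knockout (LiFKO) and GFP gave Control. For ChIP-seq, mice fed ad lib were on normal chow or on 9 days of an FPC diet, and in the "+1c" groups a second virus carried HA-tagged nuclear SREBP-1c under the ApoE/AAT promoter. By the labels, the dose of the Cre or GFP virus was higher in FPC LiFKO and FPC Control than in the chow and +1c groups. Comparisons of FPC LiFKO or FPC Control with chow or +1c lists therefore differ in that dose too. The TFE3 lists came from 4 libraries each of chow LiFKO and chow Control, and from 3 libraries each of FPC LiFKO+1c, FPC Control+1c, FPC LiFKO and FPC Control. Peaks had been called over input and over TFE3 ChIP of Tfe3 knockout (Tfe3KO) liver, which was 2 libraries with GFP virus on chow and 1 library with Cre virus on FPC. RNA-seq came from other mice on 17 to 18.5 weeks of chow (LiFKO and Control) or of AMLN diet (DKO, LiFKO and Control), fasted 4 to 6 hours, with 3 libraries in each of the 5 groups. DKO mice, from a separate line, were Tfe3-/Y in every tissue besides the Cre-deleted Flcn, and were not on chow in these data. Ages were not given, and the labels do not say that libraries came from separate animals, so p-values measure the spread between these libraries.

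One feature of the lists precedes all results. In 3 of the 6 TFE3 lists (FPC LiFKO, FPC Control+1c and FPC Control), the header names 1 library of the pool as an input and the library it was set over as a TFE3 ChIP. Whether files or only names were exchanged cannot be told apart from the headers. By the 3 lists with plain headers alone (chow LiFKO, FPC LiFKO+1c and chow Control), 7884 chow Control peaks were shared in place of 2332. Dropping lists from the rule can only raise the count, so this rise does not measure an effect of the headers.

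Promoter windows of 6 genes with such a site near their 5′ end show the sequence the motif results below turn on. Each runs 5′ to 3′ on the gene's strand, from 250 bases before the RefSeq start to 50 after it, in build GRCm38.p6, with every CACGTG in capitals. Lamp1 (a lysosomal membrane glycoprotein), Mcoln1 (the lysosomal calcium channel TRPML1), Ctsd (cathepsin D), Rragc (RagC) and Fnip1 carry from 1 to 4 copies, and Tsc1 (hamartin, which holds back mTORC1) is shown because it had the highest score of any of the sites and no copy in its window.
Lamp1: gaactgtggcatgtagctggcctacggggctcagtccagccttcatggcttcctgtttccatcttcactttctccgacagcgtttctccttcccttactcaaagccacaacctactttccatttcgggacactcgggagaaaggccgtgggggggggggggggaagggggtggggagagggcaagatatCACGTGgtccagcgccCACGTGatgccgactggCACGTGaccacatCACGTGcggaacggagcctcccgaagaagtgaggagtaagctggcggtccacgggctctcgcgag
Mcoln1: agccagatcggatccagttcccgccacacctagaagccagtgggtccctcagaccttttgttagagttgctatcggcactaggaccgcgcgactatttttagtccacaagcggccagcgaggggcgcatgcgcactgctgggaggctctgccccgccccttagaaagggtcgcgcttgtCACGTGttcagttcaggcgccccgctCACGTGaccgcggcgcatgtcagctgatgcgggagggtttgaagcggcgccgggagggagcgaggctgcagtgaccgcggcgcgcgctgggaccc
Ctsd: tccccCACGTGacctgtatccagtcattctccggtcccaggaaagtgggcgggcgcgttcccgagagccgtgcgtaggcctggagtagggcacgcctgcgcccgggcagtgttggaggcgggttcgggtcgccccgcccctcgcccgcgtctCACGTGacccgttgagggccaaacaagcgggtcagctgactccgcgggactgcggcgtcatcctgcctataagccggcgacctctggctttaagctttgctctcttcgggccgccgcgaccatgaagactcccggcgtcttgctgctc
Rragc: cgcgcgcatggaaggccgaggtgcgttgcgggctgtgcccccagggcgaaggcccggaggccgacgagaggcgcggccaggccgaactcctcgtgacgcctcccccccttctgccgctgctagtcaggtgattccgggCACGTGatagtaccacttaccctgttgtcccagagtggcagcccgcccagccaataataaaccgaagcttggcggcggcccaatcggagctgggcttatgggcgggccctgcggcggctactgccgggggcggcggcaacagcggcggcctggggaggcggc
Fnip1: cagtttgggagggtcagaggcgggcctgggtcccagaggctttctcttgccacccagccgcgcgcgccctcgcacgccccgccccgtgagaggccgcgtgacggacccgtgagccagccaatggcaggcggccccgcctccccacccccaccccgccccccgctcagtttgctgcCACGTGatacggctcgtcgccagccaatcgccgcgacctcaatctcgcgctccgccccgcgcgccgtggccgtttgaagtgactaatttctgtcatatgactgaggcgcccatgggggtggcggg
Tsc1: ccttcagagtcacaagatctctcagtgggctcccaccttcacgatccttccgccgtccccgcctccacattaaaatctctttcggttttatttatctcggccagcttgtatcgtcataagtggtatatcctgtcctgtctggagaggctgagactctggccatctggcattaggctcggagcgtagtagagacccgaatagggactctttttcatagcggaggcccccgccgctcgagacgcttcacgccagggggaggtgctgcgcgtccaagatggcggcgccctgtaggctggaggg

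These windows lie at chr8:13158911-13159210 (plus strand, Lamp1), chr8:3500269-3500568 (plus, Mcoln1), chr7:142387778-142388077 (minus, Ctsd), chr4:123917183-123917482 (plus, Rragc), chr11:54437929-54438228 (plus, Fnip1) and chr2:28640983-28641282 (plus, Tsc1). In Lamp1 the 4 copies begin 61, 45, 28 and 15 bases before the start, and the centre of the TFE3 site lay 19 bp downstream of the gene's 5′ end. In Rragc the only copy begins 112 bases before the start, and the site was centred 116 bp upstream. In Mcoln1 the copies begin at 71 and 45 bases before the start with the site at 13 bp downstream, and in Fnip1 at 75 bases with the site at 63 bp downstream. Ctsd has its copies at 245 and 98 bases before the start, and its site was centred 208 bp downstream. Peaks were given in mm9, so the offsets, not the coordinates, are set side by side. Copies are counted from the RefSeq start, and sites from the 5′ end of the deposited mm9 gene interval. These starting points can differ, and by how much in each gene was not tested. The offsets therefore do not give the distance between a copy and a site.

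Chow Control peaks missing from 1 other list or more numbered 9053. Of all chow Control peaks, 496 were in no other list, 1458 in 1, 1614 in 2, 3392 in 3 and 2093 in 4. The list that most often kept a peak out alone was FPC Control+1c (1019 peaks), followed by FPC Control (642), chow LiFKO (372), FPC LiFKO (46) and FPC LiFKO+1c (14). The 2 lists that most often kept a peak out were also the 2 shortest of the other 5: FPC Control+1c held 10827 peaks and FPC Control 9647, against 26445 in chow LiFKO, 27751 in FPC LiFKO and 35325 in FPC LiFKO+1c. At the edge of the rule, the sites near Proz, Arhgdia and Tmem37 shared 1, 2 and 3 bp with the list that overlapped them least, while peaks near Orc6, Cpn1 and Cbfa2t3 touched a peak of their missing list without sharing a base. In all, 61 sites had a smallest overlap of 20 bp or less, and 43 peaks outside the rule lay within 20 bp of the missing list. Most sites coincided more closely: the smallest overlap had a median of 125 bp (quartiles 94 and 145) of the 187 bp width of a chow Control peak.

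The authors' peak score, which was compared within a list only, had a higher median at the sites than at the remaining peaks of every list. In chow Control it was 21.1 at the sites and 14.1 at the other chow Control peaks. As a percentile within the list, the median site stood at 90.4 in FPC LiFKO+1c, 88.1 in FPC LiFKO, 87.9 in chow LiFKO, 79.4 in FPC Control+1c, 79.0 in FPC Control and 73.6 in chow Control. Of the 100 highest peaks of a list, the sites held from 64 in FPC LiFKO to 85 in FPC Control. The order of the sites was most alike between the FPC LiFKO+1c and FPC LiFKO lists (Spearman's rho of 0.94 over 2332 sites) and least alike between chow LiFKO and FPC Control+1c (0.37). Between the genotypes rho was 0.83 on chow and 0.74 on FPC diet. These values describe pooled lists in which paired lists share diet and processing.

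The 10 sites of highest chow Control score included 5 within 1 kb of a 5′ gene end. Tsc1 led with a score of 156.3 in chow Control (chr2:28496534-28496720 in mm9, centred 121 bp upstream of the 5′ end), and with 245.8 in chow LiFKO. Napa, which encodes the vesicle fusion adaptor alpha-SNAP, followed with 103.2 (211 bp upstream). Spg11, a gene of lysosome reformation, scored 89.7 (52 bp upstream), and the DNA damage kinase gene Atm 82.3 (8 bp downstream). Mrpl45, a mitochondrial ribosomal protein gene, scored 86.8 (7 bp upstream). In chow LiFKO all 5 RNAs rose, from 0.49 ± 0.12 for Atm to 0.76 ± 0.11 for Tsc1 (log2 fold change ± SE against chow Control, with the test described with the RNA results). Over all genes with a placed 5′ end 12.7% rose. Among sites in the highest score quartile of all promoter peaks, 31.5% of 251 genes rose, so a rise was not the rule at high-scoring sites. Other leading sites lay far from a 5′ end, as one 36743 bp upstream of Ercc6 with 96.8 and one 25544 bp upstream of Mcm5 with 80.7, where the nearest gene is only a position.

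**Figure D1:**
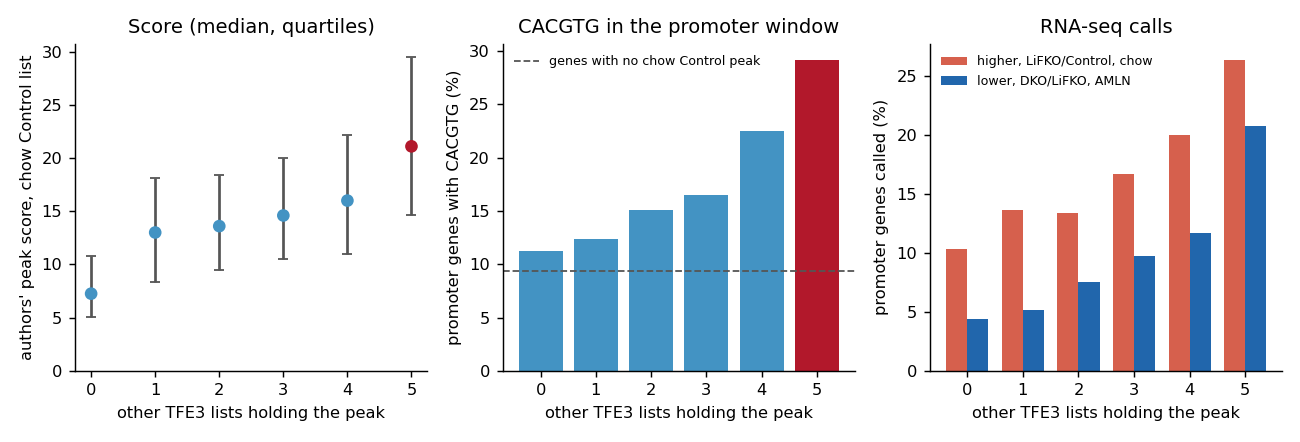
Chow Control TFE3 peaks by the number of other TFE3 lists (0 to 5) that hold them: the authors' score (points, medians; bars, quartiles), the share of their promoter genes with CACGTG in the RefSeq window (dashed line, genes with no chow Control peak), and the share of promoter genes called in 2 RNA-seq comparisons, each gene placed by its peak in most lists. The sites in all 5 other lists had the highest score (median 21.1), CACGTG share (29.2%) and shares called (26.4% higher in LiFKO against Control on chow, 20.8% lower in DKO against LiFKO). Genes with no chow Control peak are those whose 5′ end was not the nearest to any such peak within 1 kb.

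By position the sites resembled the rest of the chow Control list. Of the sites, 539 (23.1%) were centred within 1 kb of a 5′ gene end, against 2015 (22.3%) of the other chow Control peaks. A further 911 sites (39.1%) and 3449 other peaks (38.1%) lay in a gene body, and 882 sites (37.8%) and 3589 other peaks (39.6%) in neither. Near a 5′ end, the median offset was 32 bp upstream for the sites and 9 bp upstream for the other peaks. Within 1 kb of a 3′ gene end there were 41 sites. The 5′ ends could be placed for 9964 of the 13815 genes of the RNA-seq table, so these shares are low counts. The 539 promoter sites, each given to its nearest 5′ end, belonged to 534 genes, called promoter genes here.

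The E-box CACGTG was more frequent in the promoters of these 534 genes than in the comparison sets. A copy stood in the window of 156 promoter genes of the sites (29.2%) and of 312 of the 1908 promoter genes of other chow Control peaks (16.4%). It also stood in that of 708 of the 7522 genes with no chow Control peak (9.41%). That last set holds genes whose 5′ end was not the nearest to any such peak within 1 kb. A gene with a peak within 1 kb but a nearer neighbouring 5′ end therefore counts there. Over all 27025 genes of the RefSeq promoter table the share was 8.09%. The share followed the number of other lists that held the peak, at 11.3%, 12.4%, 15.1%, 16.5% and 22.5% for 0 to 4 lists and 29.2% for all 5. GTCACGTG, which contains the E-box, was in 14.2%, 6.97% and 3.54% of the promoter genes of sites, of other peaks and of genes with no peak, and TCACGTGA, which also contains it, in 7.49%, 3.41% and 1.53%. TCATGTG, which contains no CACGTG, was in 5.81%, 3.62% and 2.30%. Both strands were searched. Over all 27025 genes GTCACGTG was in 2.55%, TCACGTGA in 1.12%, TCATGTG in 4.31%, CACATG in 15.9% and GGCGCC in 13.4%. Letters searched for scale differed less: CACATG was in 11.4%, 11.4% and 10.6%, and the GC-rich GGCGCC in 28.7%, 26.7% and 22.8%. Each match is a description of a window and not a binding site.

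The E-box share was also set out by score quartile. In the lowest quartile of score over all promoter peaks, CACGTG stood in 30.6% of 62 promoter genes of sites and 12.5% of 566 of other peaks. From there the shares were 20.8% against 14.4% in the second quartile, 31.5% against 14.9% in the third, and 30.7% of 251 against 26.4% of 382 in the highest. The distance from peak centre to motif was taken only where both fell in the window span, which by itself keeps them close. No distance by chance was computed. The motif was placed from the RefSeq start and the peak from the deposited 5′ gene end, which can differ. Among genes with 1 window and 1 copy of CACGTG, and a peak centre in the same span, the median distance between peak centre and motif was 47.5 bp for 75 sites and 60.5 bp for 118 other peaks, and 54.7% and 44.9% lay within 50 bp. The rank correlation of both offsets over genes was 0.56 for the sites and 0.15 for the other peaks.

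**Figure D2:**
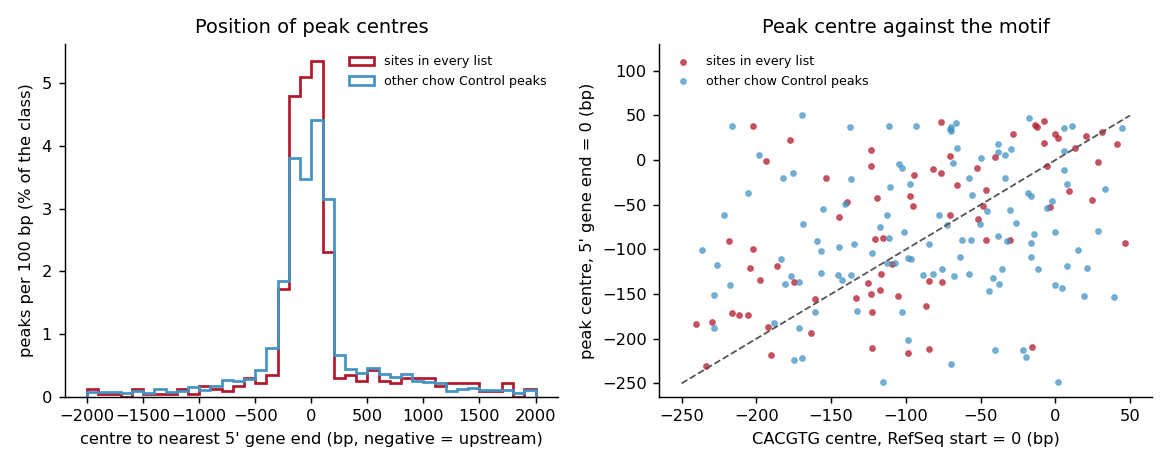
Left, distance of peak centres to the nearest 5′ gene end in steps of 100 bp, as a percent of the 2332 sites or of the 9053 other chow Control peaks, both concentrated close to the end. Right, peak centre (from the deposited 5′ gene end) against CACGTG centre (from the RefSeq start) for genes with 1 window and 1 copy (75 sites, 118 other peaks). The dashed line marks equal offsets, and the median difference between the offsets is 47.5 bp for the sites.

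Peaks of HA-tagged nuclear SREBP-1c, the factor that drives fatty acid synthesis genes and can bind E-boxes as well as sterol response elements, were not used to choose the sites. Of the sites, 210 (9.01%) overlapped an HA peak of FPC Control+1c liver, against 373 (4.12%) of the other chow Control peaks. By the number of other TFE3 lists that held the peak, this share was 0.20%, 1.51%, 2.11%, 5.25% and 6.59% for 0 to 4 lists. With the HA list of FPC LiFKO+1c liver the counts were 163 (6.99%) and 282 (3.11%), and 88 sites (3.77%) and 151 other peaks (1.67%) overlapped both. The overlap lay mostly away from promoters: for the Control+1c list 190 distal sites (10.6%) and 20 promoter sites (3.71%) were hit, and for LiFKO+1c 139 (7.75%) and 24 (4.45%). The share was higher for the sites in each score quartile, as 10.9% against 6.53% in the highest and 4.82% against 1.98% in the lowest for Control+1c. Each HA list is 1 pool, so these shares carry no replicate error, and the header of the HA LiFKO+1c list names a TFE3 library in its pool. The authors' deposited table of TFE3 peaks that differed between FPC LiFKO+1c and FPC LiFKO held 96 peaks, of which 1 overlapped a site and 8 another chow Control peak, and its header names an input library among the LiFKO libraries. That site lay 58838 bp downstream of the 5′ end of Fos, with a log2 fold change of 1.55 and an adjusted p of 0.0495 in the authors' deposited table.

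RNA-seq was used to ask how the promoter genes of the sites behaved in LiFKO liver, and in DKO liver from the separate line that also lacked Tfe3. Flcn itself, the gene that Cre deletes, has a site 767 bp downstream of its 5′ end (score 37.7), and a higher peak at 83 bp (52.8) that was in 4 of the other 5 lists. Its deposited log2 value was 10.55, 10.14 and 10.53 in chow LiFKO, against 11.33, 11.55 and 11.44 in chow Control, a log2 fold change of -1.03 ± 0.17 (SE, adjusted p = 0.00039). On AMLN diet it was 9.12, 9.45 and 9.91 in DKO, 10.25, 10.56 and 10.43 in LiFKO and 10.98, 10.92 and 11.06 in Control. All 3 Cre groups were thus below their Controls without overlap, and LiFKO against Control on AMLN was -0.57 ± 0.17 (adjusted p = 0.026). That AMLN call was lost without LiFKO replicate 1 or 3 or Control replicate 1 or 3, where the change ranged from -0.64 to -0.49 over the 6 fits that left out 1 library. Tfe3 RNA did not mark the DKO libraries: it was 10.20, 9.88 and 9.89 in DKO, 9.92, 10.02 and 10.07 in LiFKO and 10.20, 10.30 and 10.23 in Control, and no Tfe3 comparison passed the test. DKO therefore stands throughout for the libraries labelled DKO, and whether the counted reads fall outside the deleted part was not tested. The deposited values are log2 per gene with no scale per length, so levels are compared within a gene only.

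In chow LiFKO against chow Control, 141 promoter genes of the sites rose and 55 fell, 36.7% of 534, where 27% of the 9964 genes with a placed 5′ end were called (limma on all 13815 genes, Benjamini-Hochberg adjusted p under 0.05). More of the called genes were rises: 26.4% of the promoter genes of sites rose, against 15.7% of those of other chow Control peaks and 11.0% of genes with no peak, with a background of 12.7%. Falls were fewer, at 10.3%, 14.7% and 14.4%, with a background of 14.2%. The median log2 fold change was 0.09 for the promoter genes of sites and -0.06 for all genes with a placed end. By the number of other lists, the share that rose was 10.3%, 13.6%, 13.4%, 16.7% and 20% for 0 to 4 lists and 26.4% for 5. It was 28.8% of the 156 promoter genes of sites with CACGTG in the window and 25.4% of the 378 without. Median level over the 15 libraries was 10.7 for both classes of promoter genes and 9.67 for genes with no peak.

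On AMLN diet, LiFKO against Control gave 139 rises and 28 falls among the 534 promoter genes (31.3%; background 20.6%). Here 26% rose, against 12.8% for other chow Control peaks and 8.28% for genes with no peak. The background for a rise was 10.1% and for a fall 10.5%, and the median log2 fold change was 0.11 against -0.03.

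When DKO was set against LiFKO on AMLN diet, 111 promoter genes of the sites fell and 8 rose (22.3%; background 11.5%). Falls made up 20.8%, against 8.44% for other chow Control peaks and 4.57% for genes with no peak, while the background was 6.18% for falls and 5.31% for rises. The share that fell was 4.41%, 5.2%, 7.5%, 9.75% and 11.7% for peaks in 0 to 4 other lists and 20.8% for 5. In DKO against Control, 6 promoter genes rose and 2 fell, 1.5% of 534 with a background of 0.723% (0.492% for rises and 0.231% for falls). That last count rests on single libraries: it was 18 without DKO replicate 1, 3 without DKO replicate 2 or 3, and 1 without Control replicate 1. The LiFKO effect itself differed between the diets for 7 of 534 promoter genes, 1.31% with a background of 1.14% (interaction term of the same fit). DKO and LiFKO came from separate lines, so line and Tfe3 genotype cannot be told apart.

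Chow LiFKO against chow Control and AMLN DKO against AMLN LiFKO share no library. Of the 141 promoter genes of sites that rose in chow LiFKO, 88 (62.4%) were called lower in DKO against LiFKO and 0 higher. For other chow Control peaks it was 117 of 299 (39.1%), for genes with no peak 247 of 828 (29.8%), and over all genes with a placed end 452 of 1268 (35.6%). Of the 55 that fell on chow, 8 (14.5%) were higher in DKO, against 77 of 280 (27.5%) for other peaks. For genes with no peak it was 242 of 1084 (22.3%), and over all genes with a placed end 327 of 1419 (23.0%).

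**Figure D3:**
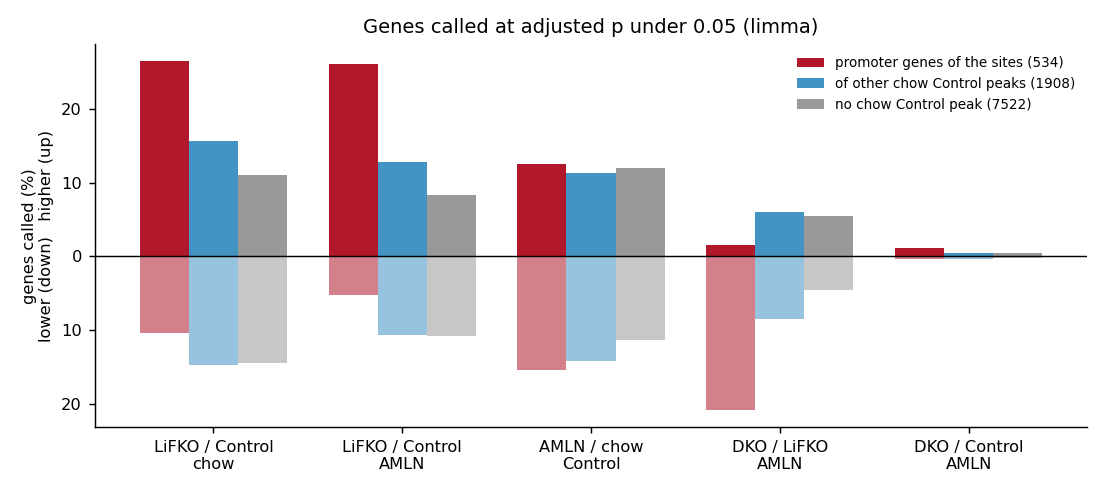
Percent of genes called higher (up, dark) or lower (down, pale) in 5 RNA-seq comparisons, for promoter genes of the sites, of other chow Control peaks, and genes with no chow Control peak. The sites' genes exceed both other sets for rises in LiFKO (26.4% on chow, 26% on AMLN) and for falls in DKO against LiFKO (20.8%).

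**Figure D4:**
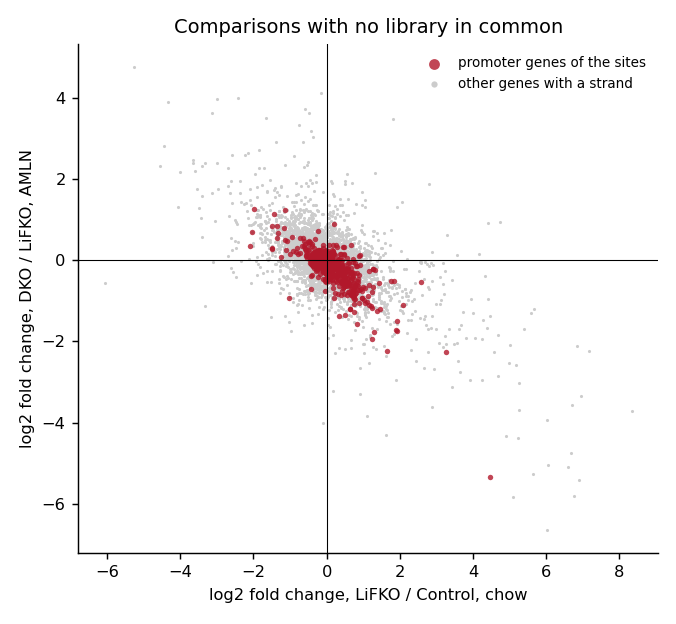
Log2 fold change of LiFKO against Control on chow (horizontal) and of DKO against LiFKO on AMLN (vertical) for the 534 promoter genes of sites (red) and the other genes with a placed 5′ end (grey). Many of the sites' genes lie at the lower right, where 88 were called higher on the horizontal and lower on the vertical axis.

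Several core genes of the folliculin and Rag circuit had a site at their promoter. Flcn, Fnip1, Fnip2, Rragc and Tsc1 had a site within 1 kb, 5 of 21 measured genes of a list of this circuit, of which 7 rose and 2 fell on chow. Fnip2 was 13.00, 12.95 and 13.45 in chow LiFKO, against 11.86, 11.94 and 11.91 in chow Control, a rise of 1.23 ± 0.18 (log2 fold change ± SE, adjusted p = 0.00022). On AMLN diet it was 11.67, 12.08 and 12.05 in DKO, 14.09, 13.38 and 14.13 in LiFKO and 11.72, 11.54 and 11.39 in Control. LiFKO thus stood apart from both other AMLN groups, with 2.32 ± 0.18 against Control and -1.94 ± 0.18 for DKO against LiFKO.

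Rragc showed the same order at smaller size: 12.27, 12.33 and 12.41 in chow LiFKO and 11.51, 11.76 and 11.52 in chow Control (0.74 ± 0.10, adjusted p = 0.00012). Its AMLN values were 11.44, 11.62 and 11.56 in DKO, 12.50, 12.24 and 12.53 in LiFKO and 11.72, 11.69 and 11.46 in Control, so that DKO and Control overlapped. Tsc1, the site of highest score, was 12.22, 12.08 and 12.37 in chow LiFKO and 11.38, 11.63 and 11.39 in chow Control (0.76 ± 0.11, adjusted p = 0.00022), and fell by 1.07 ± 0.11 in DKO against LiFKO. Fnip1 rose by 0.68 ± 0.14 on chow and 1.04 ± 0.14 on AMLN in LiFKO, and DKO against LiFKO was -0.86 ± 0.14 (adjusted p = 0.001). Rragd, which encodes RagD and had the widest change of this circuit in LiFKO (5.23 ± 0.23 on chow), had no chow Control peak in its gene body or within 2 kb, so the rule leaves it out.

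Lysosomal hydrolases supplied 13 promoter genes of sites among 40 measured entries of the list, in which Glb1 has a pair of entries: Ctsd, Ctsf, Ctsl, Ctsz, Gaa, Hexa, Naglu, Neu1, Psap, Tpp1, Manba, Arsa and Scpep1. In chow LiFKO 11 of the 13 rose and none fell, in AMLN LiFKO 10 rose, and in DKO against LiFKO 10 fell. Over the whole list the counts were 26 risen and 2 fallen on chow, 24 and 0 on AMLN, and 25 fallen and 1 risen in DKO against LiFKO. Gaa (acid alpha-glucosidase) and Manba (beta-mannosidase) passed the test in none of these, at -0.06 and 0.13 on chow.

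Hexa, the alpha subunit of beta-hexosaminidase, has a site 15 bp downstream of its 5′ end. It was 13.79, 13.93 and 13.96 in chow LiFKO, against 12.03, 12.19 and 11.74 in chow Control (1.90 ± 0.14, adjusted p = 5.1e-07). AMLN values were 12.30, 12.17 and 11.65 in DKO, 13.78, 13.67 and 13.82 in LiFKO and 12.28, 12.32 and 12.16 in Control. Both LiFKO groups lay above all other libraries, and DKO overlapped Control. Ctsz (cathepsin Z) changed by 1.91 ± 0.12 on chow, 1.85 ± 0.12 on AMLN and -1.50 ± 0.12 in DKO against LiFKO. Neu1 (the lysosomal sialidase) changed by 1.31 ± 0.10, 1.54 ± 0.10 and -1.76 ± 0.10 in the same order, and Ctsl (cathepsin L) by 1.37 ± 0.11, 1.39 ± 0.11 and -1.25 ± 0.11. Dpp7, a lysosomal dipeptidyl peptidase outside the list, rose by 1.92 ± 0.10 on chow, and on AMLN was 10.35, 10.22 and 10.06 in DKO, 11.94, 11.92 and 12.04 in LiFKO and 10.41, 10.40 and 10.18 in Control.

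Psap and Ctsd moved less on AMLN than on chow, and the difference between the diets did not pass (adjusted p = 0.21 and 0.13). Psap (prosaposin) rose by 0.70 ± 0.13 in chow LiFKO, while on AMLN it was 15.67, 15.34 and 15.32 in DKO, 15.70, 15.61 and 15.90 in LiFKO and 15.68, 15.65 and 15.24 in Control, with overlap throughout. In Control liver Psap rose by 0.58 ± 0.13 and Ctsd by 0.76 ± 0.10 with AMLN against chow (adjusted p = 0.0064 and 0.0004). Ctsd changed by 0.85 ± 0.10 in chow LiFKO and by 0.38 ± 0.10 in AMLN LiFKO (adjusted p = 0.018), the second call being lost without LiFKO replicate 3 or Control replicate 3 (0.27 to 0.45 over the fits that left out 1 library).

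Of a list of lysosomal membrane proteins and proton pump (V-ATPase) subunits, 11 of 35 measured had a promoter site: Lamp1, Lamp2, Mcoln1, Cln6, Clcn7, Slc36a1, Atp6ap2, Atp6v0c, Atp6v0d1, Atp6v1e1 and Atp6v1f. Cln6, an endoplasmic reticulum protein, was on the list and is counted among these 11. On chow 9 rose in LiFKO, on AMLN 10 rose, and 10 fell in DKO against LiFKO, with no call the other way. The whole list gave 27 risen and 1 fallen, 29 and 1, and 27 fallen and 0 risen. Slc36a1, a proton-coupled amino acid transporter, passed in none of the 3 comparisons, at -0.10, -0.11 and -0.17, and Lamp2 did not pass on chow, at 0.15 ± 0.10.

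Cln6, an endoplasmic reticulum protein needed for delivery of lysosomal enzymes, had the largest rise on both diets among promoter genes whose mean level was above the median of all genes. It was 11.97, 12.06 and 12.28 in chow LiFKO, against 8.38, 9.35 and 8.84 in chow Control (3.25 ± 0.22, adjusted p = 2.2e-07). On AMLN diet it was 9.96, 9.99 and 9.98 in DKO, 12.26, 12.09 and 12.35 in LiFKO and 8.98, 9.21 and 8.33 in Control. DKO therefore lay between the other AMLN groups, above every Control library, and DKO against Control was 1.13 ± 0.22 (adjusted p = 0.032). This last call was lost without DKO replicate 2 or 3 or Control replicate 1 or 3 (0.88 to 1.32). Below that median level, Renbp, which encodes renin-binding protein, an enzyme of N-acylglucosamine turnover, rose by more, and it is named after its values were seen: it was 12.30, 12.45 and 12.26 in chow LiFKO and 7.74, 8.32 and 7.59 in chow Control (4.45 ± 0.19). In AMLN it was 7.38, 6.78 and 7.07 in DKO, 12.42, 12.38 and 12.45 in LiFKO and 7.73, 8.09 and 7.71 in Control, so only the LiFKO libraries were high.

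Lamp1 was 15.97, 16.02 and 16.12 in chow LiFKO and 15.06, 15.07 and 15.08 in chow Control (0.97 ± 0.09, adjusted p = 4.7e-06), and fell by 0.75 ± 0.09 in DKO against LiFKO. Mcoln1 changed by 1.16 ± 0.09 on chow, 1.28 ± 0.09 on AMLN and -1.11 ± 0.09 in DKO. The V-ATPase subunits moved by less: Atp6v1e1 was 13.12, 13.19 and 13.23 in chow LiFKO and 12.32, 12.51 and 12.55 in chow Control (0.72 ± 0.07), with 0.75 ± 0.09 for Atp6v0c and 0.57 ± 0.07 for Atp6v0d1. Each of these subunits also fell in DKO against LiFKO, by 0.81, 0.69 and 0.63.

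**Figure D5:**
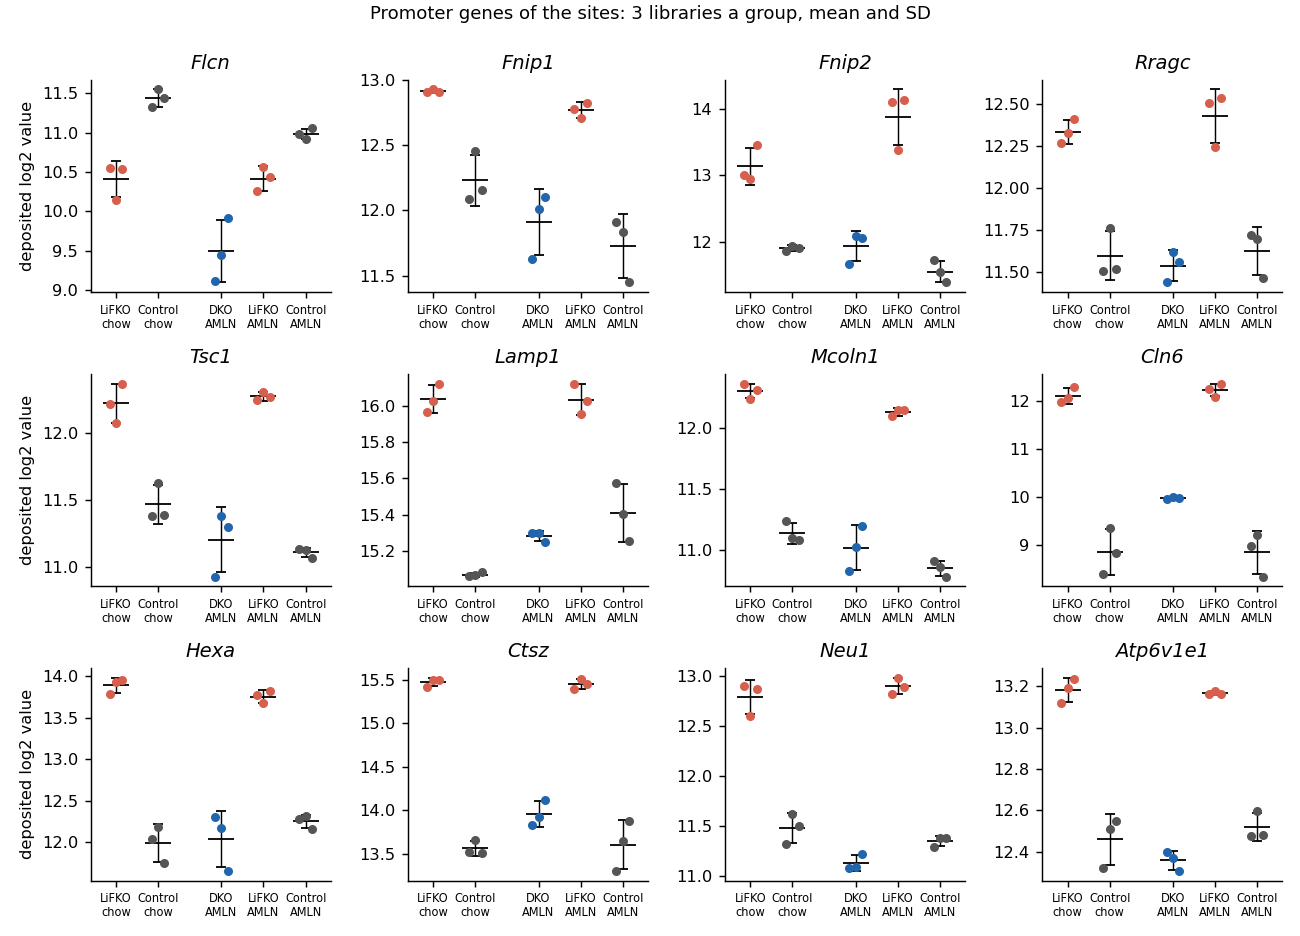
Deposited log2 values of 12 promoter genes of the sites in each of 3 libraries per group (dots), with mean and SD (bars), for chow LiFKO and Control and for AMLN DKO, LiFKO and Control. Apart from Flcn, which is lower in every Cre group, LiFKO libraries lie above Control on both diets and above DKO, and the axis of each gene has its own range and does not start at 0.

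Of 37 measured autophagy genes, 6 had a promoter site: Atg14, Gabarap, Gabarapl1, Optn, Uvrag and Vps18. Of these, 4 rose in LiFKO on each diet and 3 fell in DKO against LiFKO. The whole autophagy list gave 12 risen and 6 fallen on chow, 12 and 1 on AMLN, and 11 fallen and 1 risen in DKO against LiFKO. Gabarapl1, an ATG8 family protein, was 15.43, 15.51 and 15.75 in chow LiFKO and 14.62, 14.85 and 14.95 in chow Control (0.76 ± 0.12), and Gabarap, of the same family, changed by 0.57 ± 0.07. Uvrag, a subunit of the VPS34 kinase complex, was 11.40, 11.18 and 11.01 in chow LiFKO and 11.21, 11.12 and 11.14 in chow Control, a change of 0.04 ± 0.11 that did not pass the test. Among sorting nexins and other trafficking genes, 5 of 25 had a site, and of these 3 rose in chow LiFKO and 3 fell in DKO against LiFKO. The whole trafficking list gave 11 risen and 1 fallen on chow, and 10 fallen and 0 risen in DKO against LiFKO. Snx8 (a sorting nexin) changed by 0.89 ± 0.12 on chow and -1.06 ± 0.12 in DKO against LiFKO, and Rab7 (the late endosome GTPase) by 0.42 ± 0.06 and -0.52 ± 0.06. Hps5, a subunit of a complex for lysosome-related organelles, had one of the higher scores (59.5) and a change of 0.19 ± 0.09 that did not pass.

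Over all 9964 genes with a placed 5′ end, 5.36% were promoter genes of the sites, and the metabolic lists are given as counts only. The total of each list, here and above, counts every measured gene. It includes any gene without a placed 5′ end, which could not be a promoter gene, so list shares and the 5.36% have unlike bases. Lipogenesis had 0 of 21, fatty acid oxidation 1 of 24 (Acadl), mitochondrial biogenesis and respiration 3 of 40, and cholesterol synthesis and uptake 2 of 21. Cox5a and Atp5c1, subunits of complex IV and ATP synthase, rose in chow LiFKO by 0.83 ± 0.11 and 0.51 ± 0.07, and Acadl, the long-chain acyl-CoA dehydrogenase, by 0.68 ± 0.12. Of that mitochondrial list 32 of 40 rose on chow, most of them without a promoter site. None of the 4 MiT-TFE genes (Mitf, Tfe3, Tfeb, Tfec) and no listed marker of macrophages, stellate cells, endothelium, bile duct, lymphocytes or hepatocytes was a promoter gene of the sites. Absence by the rule is not absence of a peak. Chow Control peaks outside the rule lay 695 bp downstream of the 5′ end of Tfeb and 217 bp upstream for Srebf1 (each in 3 other lists). Others lay 246 bp upstream for Acacb and 748 bp downstream for Pnpla3 (each in 2 other lists).

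Fewer promoter genes fell in LiFKO than rose, and besides Flcn they included the following. Insig1, which holds back SREBP processing and whose site overlapped both HA lists, was 11.97, 12.50 and 12.60 in AMLN LiFKO and 13.44, 13.05 and 14.25 in AMLN Control (-1.23 ± 0.25, adjusted p = 0.0029). The 3 clock genes at the sites, Nr1d1, Dbp and Tef, were called lower in chow LiFKO and not on AMLN, and the difference between the diets did not pass for any of them (adjusted p = 0.90, 0.36 and 0.078). Of all 17 measured clock genes, 1 rose and 4 fell in chow LiFKO (median log2 fold change -0.03), with a background of 14.2% for falls. On AMLN 2 of the 17 rose and 0 fell. Dbp was 11.38, 10.70 and 12.38 in chow LiFKO and 12.59, 12.60 and 12.53 in chow Control (-1.08 ± 0.28, adjusted p = 0.011, a call lost when chow LiFKO and chow Control were fitted alone), while Tef changed by -0.56 ± 0.11 (adjusted p = 0.0016). Nr1d1 overlapped between the groups, at 9.99, 8.99 and 11.21 against 10.76, 11.34 and 12.04, and its call was lost without LiFKO replicate 1 or 2 or Control replicate 2 or 3 (-1.89 to -0.78). Tsku, which encodes a secreted protein, changed by -1.44 ± 0.32 on chow and -2.03 ± 0.32 on AMLN, and Ece1, the endothelin-converting enzyme, changed by -0.73 ± 0.09 in chow LiFKO and 0.55 ± 0.09 in DKO against LiFKO.

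The AMLN diet alone changed a share of the promoter genes of the sites near that of all genes. In AMLN Control against chow Control 67 rose and 82 fell, 27.9% of 534 with a background of 23.9% (11.8% for rises and 12.1% for falls). The count depended on single libraries, at 88 without AMLN Control replicate 1, 93 without replicate 2, 90 without chow Control replicate 1 and 84 without replicate 2. Abcg5, a sterol exporter, rose by 1.05 ± 0.13 (adjusted p = 0.00024), with values of 13.53, 13.75 and 13.74 on AMLN and 12.66, 12.82 and 12.40 on chow. Pdxk, the pyridoxal kinase, was 11.45, 11.69 and 11.63 in AMLN Control and 12.74, 12.80 and 12.27 in chow Control, a change of -1.01 ± 0.13, while it rose in LiFKO on both diets. Ttc39b changed by -1.11 ± 0.16.

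The summed level of 11 measured hepatocyte markers, as log2, to which the most abundant markers contribute most, was 21.51 to 21.90 in chow LiFKO against 22.19 to 22.27 in chow Control. On AMLN it was 22.19 to 22.22 in DKO, 21.63 to 21.72 in LiFKO and 22.17 to 22.27 in Control, so only LiFKO was lower in the sum. Single hepatocyte markers were called less: in LiFKO against Control 1 of 11 rose and 3 fell on chow (median log2 fold change -0.10), and 0 of 11 were called on AMLN (median -0.22), as were 0 of 11 in DKO against LiFKO (median 0.20). At an unadjusted p under 0.05 from limma, 3 of 11 passed in each of these AMLN comparisons. The summed macrophage markers overlapped between genotypes on each diet, at 14.35 to 14.74 in chow LiFKO and 14.12 to 15.16 in chow Control. Those of endothelium did not overlap on AMLN, at 14.14 to 14.34 in DKO, 14.47 to 14.56 in LiFKO and 13.95 to 14.12 in Control. Those of bile duct in AMLN LiFKO lay below Control and overlapped DKO. They were 11.05 to 12.11 in DKO, 10.40 to 11.90 in LiFKO and 12.07 to 12.68 in Control. The part of these levels in the results above was not tested, and in whole liver fewer cells of a type and less RNA per cell cannot be told apart.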

How the data were processed

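The sites and the gene lists were chosen with earlier results of these data known, and genes were named by rule: the highest-scoring sites, up to 4 promoter genes of each list, the 5 largest rises and falls per comparison without overlap above the median level, and the core circuit genes.

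Peaks are in mm9 and carry the authors' peak score, deposited in HOMER lists of pooled libraries, per the file headers. The submitters' processing notes name Trimmomatic, Bowtie2, SAMtools, bedtools and HOMER for ChIP-seq, with HOMER 4.11 and Bowtie2 2.2.8 on chow and HOMER 4.4 and Bowtie2 2.2.6 on FPC. Chow and FPC lists therefore differ in processing as well as diet, and FPC LiFKO and FPC Control also in virus dose. For RNA-seq they name bcl2fastq 2.17, Trimmomatic 0.32, STAR 2.6.0c, featureCounts and limma. The deposited RNA-seq values are log2 values, with the same highest value (21.47) in all 15 libraries and medians of 9.791 to 9.799, so they were normalized between libraries and the read depth is unknown. The log2 fold changes and adjusted p-values of the differential TFE3 peaks are the authors', from their deposited table, whose 6 per-sample columns were not used.

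Peaks were matched by an overlap of 1 bp. Gene 5′ ends combine the deposited mm9 gene intervals with strand from the RefSeq table (9669 genes by gene ID, 244 by symbol and 51 by synonym). RefSeq promoter windows are from GRCm38.p6. limma 3.58.1 (R 4.3.3, trended eBayes) fitted all 5 groups and 13815 genes together, with Benjamini-Hochberg adjustment in each comparison. The fit was tested on simulated data. Same-numbered chow LiFKO and chow Control libraries deviated together (r = 0.113, 0.170 and 0.237), which met the check for pairing, from the data and not from a stated pairing. The printed values come from the fit without a block, and the replicate block was an alternative. No pair of libraries held identical values. Alternatives changed the overlap, the score, the distance to a 5′ end, the fit and the libraries. Sequences of the peaks were not analysed here.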

Additional observations from a re-analysis of the deposited data

Results flagged for a closer look

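The effect of LiFKO differed between the diets, by the interaction term of the limma fit over all genes, for 7 of the 534 promoter genes (1.31%, against 1.14% of all genes with a placed 5′ end). The 5 given here are those without a predicted (Rik) name. Pnpla7, a lysophospholipase gene, had a LiFKO effect of 0.44 on AMLN and 1.43 on chow, a difference of -0.99 on the log2 scale (adjusted p = 0.011). Plscr1, a phospholipid scramblase gene, had 0.12 and 1.28, a difference of -1.16 (adjusted p = 0.024). Pyroxd2 had 0.81 and 1.84, a difference of -1.03 (adjusted p = 0.046). The other two were stronger or opposite on AMLN. Pdxk had 1.62 on AMLN and 0.71 on chow, a difference of 0.91 (adjusted p = 0.031). Sirt3, a mitochondrial deacetylase gene, had 0.32 and -0.27, a difference of 0.59 (adjusted p = 0.026).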

How the results depend on the processing

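With the 3 lists with plain headers alone, chosen after seeing the data, 7884 peaks were shared, with 1648 promoter genes. Both counts can only rise when lists are dropped. Called were 522 (LiFKO on chow, 31.7%, background 27%), 422 (LiFKO on AMLN, 25.6%, background 20.6%) and 437 (diet, 26.5%, background 23.9%). For DKO against LiFKO it was 283 (17.2%, background 11.5%), and for DKO against Control 16 (0.971%, background 0.723%). Rises in chow LiFKO were 19.1%, against 26.4% with all 6 lists. Falls in DKO against LiFKO were 13.1%, against 20.8%. Keeping peaks in the upper score range of every list left 1397 sites. With the upper score range of each HA list alone, 5.02% (117) and 4.07% (95) of the 2332 sites overlapped the HA peaks of Control+1c and LiFKO+1c. Within 500 bp, 5 kb or either end of genes without a strand, 20.8%, 29.5% and 29.1% of sites were near a gene end. DKO against Control gave 3 calls without the trend, 1 with its groups alone and 4 within 500 bp. Diet gave 51 calls with its groups alone and the replicate block. Without 1 library each, counts ranged over 166 to 175 (LiFKO on chow), 135 to 147 (LiFKO on AMLN), 84 to 152 (diet), 93 to 101 (DKO against LiFKO) and 1 to 18 (DKO against Control). The replicate block over all groups gave 191, 162, 137, 115 and 7, within 1.5 times each main count, the chow LiFKO and Control groups alone with the replicate block gave 211, and only the chow LiFKO and Control numbers met the pairing check. Of 172 called values of named genes, 126 stayed called under every alternative, 39 were lost without some library, 36 under another setting, and 0 reversed. The causes were not tested. Read depth is unknown, and the pooled lists have no replicate error.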
